A study of Mus musculus with 10 samples.

Results

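The matrix metalloproteinase genes (Mmp3, Mmp8, Mmp9, Mmp12, Mmp13, Mmp14 and Mmp19), the inhibitor gene Timp2, the thrombospondin 1 gene Thbs1 and the osteopontin gene Spp1 were followed in RNA-seq of RAW264.7 cells, a mouse macrophage line. These 10 genes were found by symbol among the 43432 Ensembl genes counted, and all 10 were among the 14172 genes that passed the filter on low counts. They were chosen by expression differences already measured between these conditions in the same libraries, so the fold changes and adjusted p-values below describe where each gene stood in a fit of all genes and are not independent evidence that the group responded. There were 5 conditions with 2 libraries each. Cells received solvent (0.5% DMSO) without LPS (DMSO), solvent with LPS at 1 µg/mL (DMSO + LPS), or compound 1 at 3.2, 10 or 32 µM with LPS at 1 µg/mL. Compound 1, an unsaturated keto fatty acid isolated from marine cyanobacteria, was added 1 h before LPS. RNA was collected after 12 h. All conditions share 1 cell line, no condition held compound 1 without LPS, and the labels give 2 biological replicates without naming separate cultures, so the p-values measure the spread between these libraries.

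Matrix metalloproteinases are zinc-dependent endopeptidases that cut collagens, gelatin, elastin and other proteins of the extracellular matrix. They are made as inactive proenzymes, are activated when the prodomain is removed, and are blocked by tissue inhibitors of metalloproteinases (TIMPs). Macrophages transcribe several of them after contact with bacterial products such as LPS, which acts through Toll-like receptor 4. Thrombospondin 1 is a secreted matricellular glycoprotein bound by CD36 and CD47, and osteopontin is a secreted phosphoprotein bound by integrins and CD44.

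Library totals lay between 45966803 and 58976377 counts. Levels are given as CPM, the counts of a gene per 1000000 counts of its library total after TMM scaling. Before this scaling, 5 counts per 1000000 stand for 229 counts in the smallest library. All 9 macrophage markers examined had counts in every library, and they summed to between 8107 and 11961 CPM. Neutrophil markers, which matter here because neutrophils store Mmp8 and Mmp9 protein, summed to between 0.599 and 8.32 CPM. Osteoclast markers, a cell state that RAW264.7 cells can enter and in which Mmp9 and Spp1 are abundant, summed to between 298 and 530 CPM over the 10 libraries. A pair of libraries stood apart. Replicate 1 at 10 µM held 2524 counts (54.2 CPM) over 5 epithelial markers (Krt8, Krt18, Krt19, Epcam and Cdh1) and 233 counts over 6 fibroblast markers, and replicate 1 at 3.2 µM held 352 epithelial counts (7.59 CPM). The other 8 libraries held 0 to 8 epithelial counts. Replicate 2 at 32 µM had 2.46% of its counts on Gm42418, a gene overlapping ribosomal RNA, against 0.0419% to 0.207% in the other libraries. These libraries were singled out after their values were seen, and many, but not all, of the results that rest on them are also given without them. The part of the foreign transcripts in any result was not tested.

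Promoter windows from RefSeq on GRCm38.p6, 250 bases before to 50 after an annotated start, were matched for 7 of the 10 genes (Mmp3, Mmp8, Mmp12, Mmp13, Mmp14, Spp1 and Timp2), with 2 windows each for Mmp12 and Spp1. Shown are the 150 bases before the start for the 3 windows that hold a match to the AP-1 motif TGANTCA, and for Spp1, the most abundant of the genes, the upstream of its 2 windows, whose start lies just before the GENCODE start of the gene and is not itself the first base of a GENCODE transcript. Capitals mark TGANTCA and the PEA3-type ETS motif AGGAAG, each on either strand.
Mmp3, chr9:7445672-7445821, + strand: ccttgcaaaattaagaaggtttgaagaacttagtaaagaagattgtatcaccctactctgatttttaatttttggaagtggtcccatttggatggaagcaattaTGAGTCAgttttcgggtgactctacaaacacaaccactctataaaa
Mmp13, chr9:7272364-7272513, + strand: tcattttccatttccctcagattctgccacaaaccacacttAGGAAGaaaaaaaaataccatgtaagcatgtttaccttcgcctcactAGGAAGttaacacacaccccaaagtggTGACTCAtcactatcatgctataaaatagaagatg
Mmp12, chr9:7347224-7347373, + strand: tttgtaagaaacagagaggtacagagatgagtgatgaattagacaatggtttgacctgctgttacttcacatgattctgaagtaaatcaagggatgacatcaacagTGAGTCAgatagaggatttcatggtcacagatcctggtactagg
Spp1, chr5:104434961-104435110, + strand: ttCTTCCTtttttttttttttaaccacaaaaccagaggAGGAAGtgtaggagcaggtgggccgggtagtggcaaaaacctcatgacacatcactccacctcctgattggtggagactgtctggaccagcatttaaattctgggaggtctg
The AP-1 match began 46 bases before the start of Mmp3, 35 bases before that of Mmp13 and 44 bases before the second start of Mmp12, where 2 GENCODE transcripts begin. It was present in 3 of the 9 windows and in 7.81% of 32851 windows of all genes. AGGAAG was present in 7 of the 9 windows and in 35.4% of all windows, and in Mmp13 it lay 109 and 62 bases before the start. The antioxidant response element core TGANNNNGC was present in 7 of 9 windows against 41.3% of all windows, and the consensus of the interferon-stimulated response element, on either strand, in 2 of 9, those of Mmp13 and Spp1, against 3.44%. The κB consensus, searched on both strands, had no match in the 9 windows and was present in 4.51% of all windows. TATAAA was present in 5 of 9 windows against 13.6%. A match describes these letters alone and not a site in use.

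**Figure D1:**
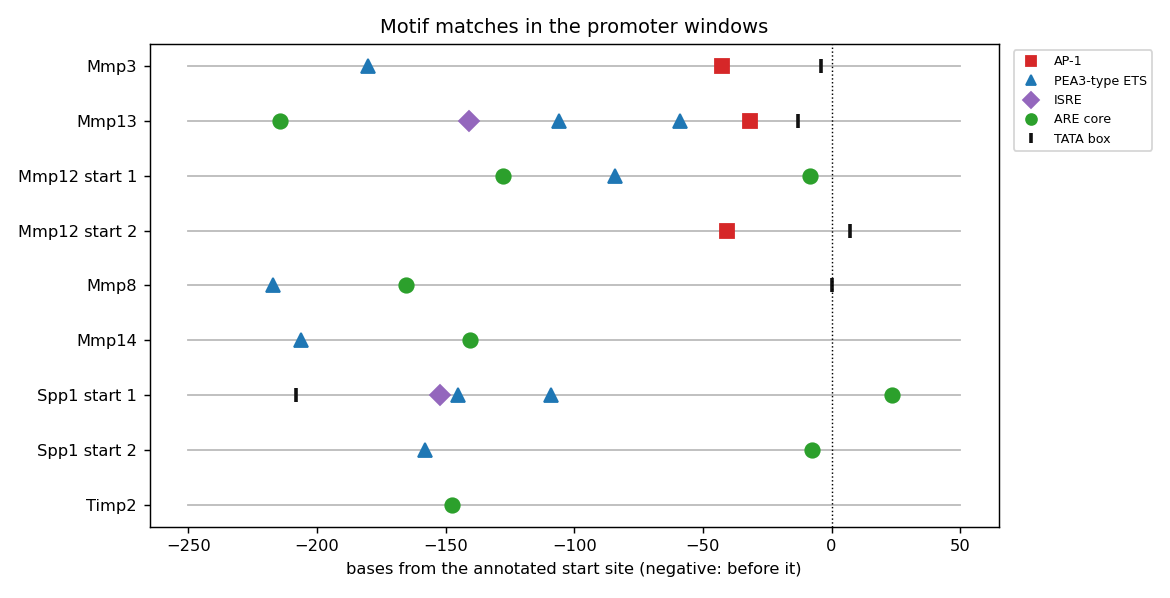
Motif matches in the 9 promoter windows, drawn by distance in bases from the annotated start (x axis, negative before the start), with 1 row per window. The AP-1 match of Mmp3, Mmp13 and the second start of Mmp12 lies 35 to 46 bases before the start, and the windows of Mmp8, Mmp14, Spp1 and Timp2 hold none.

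Mmp3 encodes stromelysin 1, which cuts proteoglycans and fibronectin and activates other proenzymes. Without LPS, Mmp3 had 0 and 0 counts, with LPS alone 361 and 289, and with compound 1 216 and 233 (3.2 µM), 116 and 125 (10 µM) and 38 and 39 (32 µM). No library of 1 condition overlapped another. In CPM, its mean was 6.23 ± 0.11 (SD, n = 2) in DMSO + LPS and 0.820 ± 0.061 at 32 µM, which is 13.2% of the DMSO + LPS level. Against a floor of 3 counts per DMSO library, the level was at least 120-fold higher in DMSO + LPS and at least 15.8-fold higher at 32 µM. Against DMSO + LPS, Mmp3 fell at 32 µM (log2 fold change −2.92 ± 0.14 SE, edgeR quasi-likelihood adjusted p = 3.13e-05; −3.001 without replicate 2 at 32 µM) and at 10 µM (−1.24 ± 0.13, adjusted p = 0.00478). Without replicate 1 at 10 µM, the latter was −1.17 (adjusted p = 0.0256). At 3.2 µM the difference was −0.42 ± 0.12 and did not pass the test (adjusted p = 0.956). The call at 10 µM was lost when either DMSO + LPS library was left out (adjusted p = 0.0648 and 0.0565) and in a fit of the 4 libraries compared alone (−1.24, adjusted p = 0.0611).

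Mmp13 and Mmp8 encode collagenases, which cut fibrillar collagen. Without LPS, Mmp13 had 1 and 0 counts, with LPS alone 1031 and 801, and with compound 1 910 and 942 (3.2 µM), 810 and 794 (10 µM) and 603 and 514 (32 µM). The ratio of DMSO + LPS to DMSO was 2031, with a 95% counting interval of 364 to 80280, since the resting value rests on 1 count. Mmp13 lay below DMSO + LPS in both libraries at 32 µM (−0.57 ± 0.10, adjusted p = 0.00965), under the 1.5-fold cutoff by a narrow margin. At 10 µM it was at 99.8% of the DMSO + LPS level, with overlapping libraries (difference −0.0038 ± 0.10, interval −0.23 to 0.23). Without replicate 1 at 32 µM the value at 32 µM was −0.62 and passed both cutoffs (adjusted p = 0.0275), and without replicate 2 it was −0.51 (adjusted p = 0.0597).

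Mmp8, the neutrophil collagenase, was the least abundant of the genes under LPS. Without LPS, Mmp8 had 8 and 1 counts, with LPS alone 17 and 14, and with compound 1 34 and 30 (3.2 µM), 26 and 38 (10 µM) and 20 and 33 (32 µM). Every library with compound 1 lay above both DMSO + LPS libraries, at 191% to 235% of that mean by condition. None of these differences passed the test. At 32 µM the difference was 0.93 on the log2 scale, 0.45 without replicate 2 and 1.29 without replicate 1 at that dose. The intervals were wide, from −0.44 to 2.30 on the log2 scale at 32 µM and from −0.14 to 2.59 at 10 µM. With LPS alone its difference was 1.91 ± 0.70 on the log2 scale, which was not a call by the quasi-likelihood test (adjusted p = 0.0510) and was one by the likelihood ratio test (0.0108), by DESeq2 (0.0459) and without the count filter (0.0300). The size of this difference rests on the DMSO libraries: it was 3.89 without replicate 1 of DMSO, which held 8 of the 9 resting counts (adjusted p = 0.00694), and 1.098 without replicate 2 (adjusted p = 0.179).

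Mmp9 encodes gelatinase B, which cuts denatured and type IV collagen. Without LPS, Mmp9 had 9 and 16 counts, with LPS alone 1903 and 1500, and with compound 1 970 and 1053 (3.2 µM), 785 and 649 (10 µM) and 579 and 564 (32 µM). The CPM of the libraries did not overlap between conditions, and the mean went from 32.6 ± 0.9 in DMSO + LPS to 20.97 ± 0.07, 15.6 ± 1.8 and 12.2 ± 0.5 with rising dose. LPS raised Mmp9 149-fold (log2 fold change 7.22 ± 0.18, adjusted p = 2.75e-08). It fell at 32 µM (−1.42 ± 0.12, adjusted p = 1.73e-04, and −1.46 without replicate 2 at 32 µM) and at 10 µM (−1.06 ± 0.12, adjusted p = 0.00364; −1.18 without replicate 1 at 10 µM). Leaving out the first DMSO + LPS library took away the call at 10 µM (adjusted p = 0.0590). At 3.2 µM it was at 64.4% of the DMSO + LPS level (−0.64 ± 0.11, adjusted p = 0.488).

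Mmp12 encodes macrophage elastase, which cuts elastin. Without LPS, Mmp12 had 36 and 31 counts, with LPS alone 2633 and 2018, and with compound 1 2529 and 2832 (3.2 µM), 2657 and 2708 (10 µM) and 2795 and 2755 (32 µM). LPS raised it 76.4-fold (6.26 ± 0.09, adjusted p = 2.22e-09). Every library with compound 1 lay above both DMSO + LPS libraries in CPM, with 55.5 ± 1.4, 58.5 ± 2.0 and 59.03 ± 2.70 at the rising doses against 44.5 ± 2.1. The differences passed the adjusted p cutoff at 32 µM (0.41 ± 0.06, adjusted p = 0.00425) and 10 µM (0.40 ± 0.06, adjusted p = 0.0159), and stayed under 1.5-fold at each dose. Without the library that stood apart they were 0.36 at 32 µM (replicate 2 left out, adjusted p = 0.0375) and 0.43 at 10 µM (replicate 1 left out, adjusted p = 0.0429). Neither passed under every alternative: the adjusted p reached 0.0570 at 32 µM and 0.187 at 10 µM, both without replicate 2 of DMSO + LPS, and at 10 µM leaving out any of 5 libraries or comparing the 4 libraries alone put it above 0.05. Between 32 and 10 µM the libraries overlapped (0.01 ± 0.06, interval −0.13 to 0.15). Mmp12 and Mmp3 lie on the same strand of chromosome 9, and their differences at 32 µM had opposite signs.

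**Figure D2:**
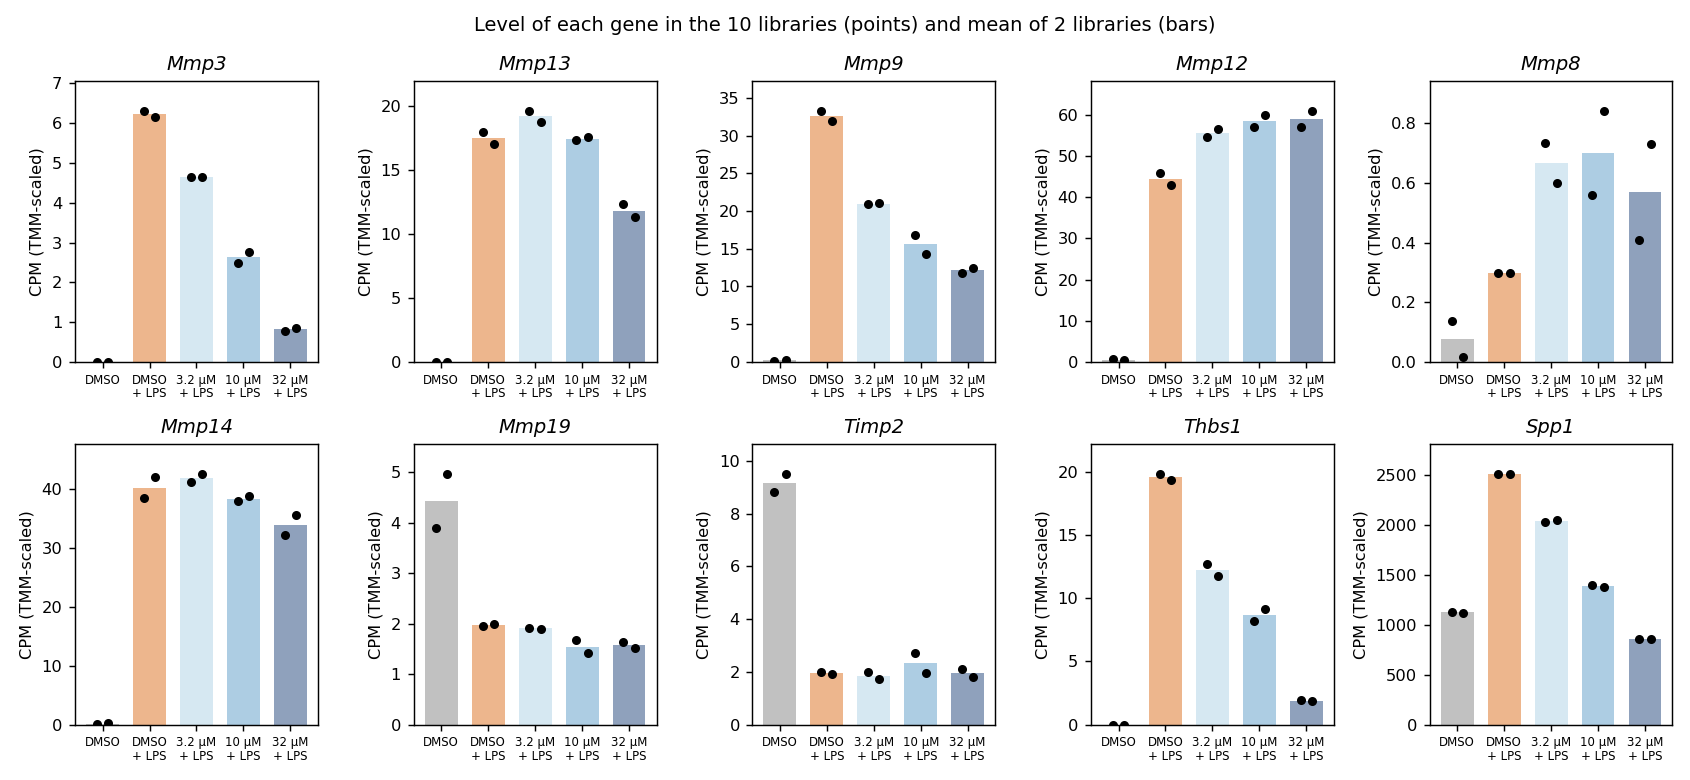
TMM-scaled CPM (y axis, linear from 0, own scale per panel) of the 10 genes in the 5 conditions (x axis), with points for the 2 libraries and bars for their mean. Mmp3, Thbs1, Mmp9 and Spp1 step down with each dose, Mmp12 stays above its DMSO + LPS level of 44.5 CPM, and Timp2 and Mmp19 are highest in DMSO.

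Mmp14 encodes a membrane-anchored metalloproteinase that cuts collagen at the cell surface and activates the proenzyme of Mmp2. Without LPS, Mmp14 had 6 and 13 counts, with LPS alone 2200 and 1970, and with compound 1 1907 and 2132 (3.2 µM), 1765 and 1750 (10 µM) and 1576 and 1607 (32 µM). LPS raised it 241-fold (7.91 ± 0.18, adjusted p = 1.97e-08), a size that rests on few resting counts and was 8.57 on the log2 scale without replicate 2 of DMSO. At 32 µM both libraries lay below both DMSO + LPS libraries, at 84.3% of their mean, and the difference did not pass the test (−0.25 ± 0.11, interval −0.50 to 0.00, adjusted p = 0.234; −0.32 without replicate 2 at 32 µM). At 10 and 3.2 µM the libraries overlapped those of DMSO + LPS.

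Timp2 encodes an inhibitor of metalloproteinases that also takes part, with Mmp14, in the activation of Mmp2. Without LPS, Timp2 had 518 and 540 counts, with LPS alone 114 and 90, and with compound 1 92 and 86 (3.2 µM), 126 and 89 (10 µM) and 103 and 82 (32 µM). LPS lowered Timp2 4.68-fold (−2.23 ± 0.17, adjusted p = 1.66e-05). The libraries of every dose overlapped those of DMSO + LPS, with a difference of 0.0045 ± 0.18 at 32 µM (interval −0.41 to 0.41). The highest level among LPS libraries, 2.71 CPM, was that of replicate 1 at 10 µM, the library with epithelial and fibroblast transcripts, against 1.97 CPM in replicate 2.

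Mmp19 encodes a secreted metalloproteinase found in myeloid cells. Without LPS, Mmp19 had 229 and 282 counts, with LPS alone 112 and 94, and with compound 1 89 and 95 (3.2 µM), 78 and 64 (10 µM) and 80 and 69 (32 µM). It fell 2.24-fold with LPS (−1.16 ± 0.16, adjusted p = 5.23e-04). Its libraries lay below those of DMSO + LPS at each dose, at 79.9% of that level at 32 µM, and no dose passed the test (−0.32 ± 0.17 at 32 µM, interval −0.71 to 0.07). Tmem198b overlaps Mmp19 on the opposite strand with 279 to 389 counts per library, and the use of strand in the counting is not given in the sources used here, so the Mmp19 values are uncertain.

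Thbs1 encodes thrombospondin 1, which binds matrix proteins, CD36 and CD47 and activates latent transforming growth factor β. Without LPS, Thbs1 had 0 and 0 counts, with LPS alone 1135 and 908, and with compound 1 589 and 589 (3.2 µM), 381 and 412 (10 µM) and 95 and 83 (32 µM). No condition overlapped another. The level was at least 377-fold higher in DMSO + LPS than the floor of the DMSO libraries, and at least 36.4-fold higher at 32 µM. Among the 10 genes it had the lowest level at 32 µM relative to DMSO + LPS, 9.65% (1.89 ± 0.07 against 19.6 ± 0.3 CPM). Thbs1 fell at 32 µM (−3.37 ± 0.10, adjusted p = 4.70e-06, and −3.33 without replicate 2 at 32 µM) and at 10 µM (−1.18 ± 0.09, adjusted p = 0.00182; −1.10 without replicate 1 at 10 µM). At 3.2 µM it was at 62.5% (−0.68 ± 0.09, adjusted p = 0.254).

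Spp1 encodes osteopontin, which supports adhesion and migration of macrophages and osteoclasts. It was already abundant without LPS, at 66130 and 63542 counts, with LPS alone it had 143654 and 117756, and with compound 1 it had 94141 and 102300 (3.2 µM), 65172 and 62316 (10 µM) and 41699 and 38656 (32 µM). In CPM the replicates differed little and no conditions overlapped, with 1122 ± 4 in DMSO, 2508 ± 1 in DMSO + LPS, 2037 ± 8, 1390 ± 15 and 854 ± 2 at the rising doses. LPS raised Spp1 2.24-fold (1.16 ± 0.03, adjusted p = 4.82e-08). It fell at 32 µM to 34.0% of the DMSO + LPS level (−1.56 ± 0.03, adjusted p = 4.07e-07, with the same value without replicate 2 at 32 µM) and at 10 µM to 55.4% (−0.85 ± 0.03, adjusted p = 5.01e-05; −0.86 without replicate 1 at 10 µM). At 3.2 µM it was at 81.2% (−0.30 ± 0.03, adjusted p = 0.111). In these bulk libraries, fewer cells with the transcript and less transcript per cell cannot be told apart, here and for the other genes.

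With LPS alone, 7 of the 10 genes rose (Mmp3, Mmp9, Mmp12, Mmp13, Mmp14, Thbs1 and Spp1) and 2 fell (Mmp19 and Timp2), where a call needs an adjusted p below 0.05 and a 1.5-fold change. Over all genes, 14.6% rose and 13.6% fell in this comparison. At 32 µM against DMSO + LPS, 4 fell (Mmp3, Mmp9, Thbs1 and Spp1) and 0 rose, where 2.91% of all genes fell and 1.27% rose. The median log2 difference of the 10 was −0.44 at 32 µM, beside 0.01 over all genes tested. At 10 µM the counts were again 4 lower and 0 higher, beside 0.579% lower and 0.282% higher over all genes. Without replicate 1 at 10 µM these 4 calls stood, among 97 genes called in all against 122. Markers of the macrophage itself also differed at 32 µM. Of the 9 examined, Itgam, an integrin chain (442 to 277 CPM, −0.67 ± 0.07, adjusted p = 4.69e-04), and Lyz2, the lysozyme gene (4127 to 2707 CPM, −0.61 ± 0.08, adjusted p = 0.00238), fell and 0 rose. Without replicate 2 at 32 µM Itgam remained called (−0.67) and Lyz2 did not (−0.55, under 1.5-fold). Of the 9, 5 had an unadjusted p below 0.05, among them Csf1r with a higher level, beside 3151 of the 14172 genes tested. The median difference of the 9 was −0.15. In DMSO + LPS the 9 summed to 10383 and 10502 CPM, and with compound 1 to 9331 and 8600 CPM (10 µM) and 8493 and 8107 CPM (32 µM). The part of this in the values of the 10 genes was not tested. As earlier results chose the 10 genes, nothing is read from these counts beside the background. With LPS alone, the summed neutrophil markers went from 1.17 and 0.599 CPM to 6.76 and 6.67 CPM, where both tested markers rose. Most of the sum in DMSO + LPS was S100a8, a gene of neutrophils and of activated macrophages. In these DMSO + LPS libraries, 5 and 3 of the 9 neutrophil markers had 0 counts. The summed osteoclast markers went from 298 and 324 CPM to 434 and 422 CPM, where 3 of 6 tested rose. The part of these markers in the LPS differences of Mmp8, Mmp9 and Spp1 was not tested. The dose comparisons share the DMSO + LPS libraries and are not independent of each other or of the LPS comparison.

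**Figure D3:**
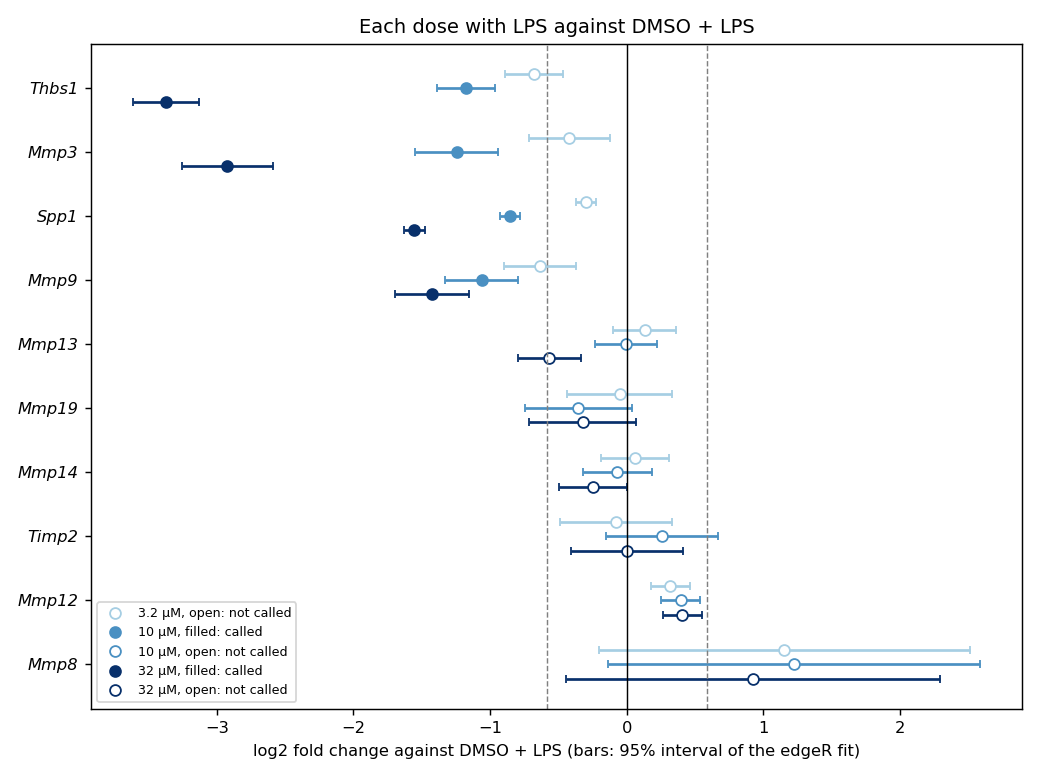
Log2 fold change of the 10 genes at 3.2, 10 and 32 µM against DMSO + LPS (x axis), with 95% intervals of the edgeR fit; dashed lines mark 1.5-fold. Filled points passed the adjusted p and fold cutoffs, which they did for Thbs1, Mmp3, Spp1 and Mmp9 at 10 and 32 µM, and the intervals of Mmp8 are the widest.

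At 3.2 µM edgeR's quasi-likelihood test called 0 of the 10 genes, and it called 0% of all genes higher and 0% lower. At an unadjusted p below 0.05, 5 of the 10 differed (Mmp3, Mmp9, Thbs1 and Spp1 lower, Mmp12 higher), beside 600 of all genes tested. Mmp9 and Thbs1 were called by edgeR's likelihood ratio test (adjusted p = 5.51e-04 and 0.00287) and by DESeq2 (2.42e-04 and 0.00334). The likelihood ratio test and DESeq2 were not run without replicate 1 at 3.2 µM. Over all alternatives the adjusted p lay between 1.58e-04 and 1 for Mmp9 and between 6.82e-04 and 1 for Thbs1. Without replicate 1 at 3.2 µM the quasi-likelihood test again called 0.

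Between 32 and 10 µM, 3 of the 10 were lower at the higher dose (Mmp3, −1.68 ± 0.14, Thbs1, −2.19 ± 0.10, and Spp1, −0.70 ± 0.03), beside 1.15% lower and 0.169% higher over all genes. Mmp9 was at −0.36 ± 0.12 and did not pass (adjusted p = 0.233). The 3 calls stood without replicate 1 at 10 µM and without replicate 2 at 32 µM. In a fit of the 4 libraries compared alone, 0 of the 10 and 5 of all genes were called.

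Cells with LPS and compound 1 at 32 µM were also set against resting DMSO cells, which addresses how far the levels stood from those before LPS. Of the 10 genes, 7 were higher (Mmp3, Mmp8, Mmp9, Mmp12, Mmp13, Mmp14 and Thbs1) and 2 lower (Mmp19 and Timp2), beside 13.9% higher and 13.3% lower over all genes. The Mmp8 call did not stand without replicate 2 at 32 µM, 1 of the libraries that stood apart (2.83 with it, 2.36 and adjusted p = 0.0523 without it), and the other 8 calls did. Over the alternatives the Mmp8 value ran from 2.01 without replicate 2 of DMSO to 4.82 without replicate 1 of DMSO. Mmp9 remained 55.5-fold above DMSO (5.79 ± 0.18, adjusted p = 1.25e-07). Spp1 lay below its resting level in both libraries, 854 against 1122 CPM (−0.39 ± 0.03, adjusted p = 2.19e-05), under the fold cutoff. Scaled by library size alone, without TMM, the Spp1 difference was −0.60 and passed both cutoffs. Timp2 and Mmp19 stood at 21.4% and 35.7% of DMSO.

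Per length of annotated exons (RPKM, the CPM divided by the exon length in kilobases), Spp1 in DMSO + LPS was at 1522, far above Mmp9 at 9.21, Mmp14 at 6.74, Mmp13 at 6.56, Mmp12 at 6.15, Mmp3 at 3.46, Thbs1 at 3.22, Mmp19 at 0.560, Timp2 at 0.501 and Mmp8 at 0.123. The neighbours Mmp14 and Mmp13 overlapped between libraries. The order depends on the length used, which joins the exons of all annotated transcripts of a gene. It was 7237 bases for Mmp12 and 3539 bases for Mmp9. By CPM in DMSO + LPS, Mmp12 stood above Mmp14 and Mmp9, at 44.5, 40.2 and 32.6 CPM. At 32 µM the order by RPKM was Spp1 at 518, Mmp12 at 8.16, Mmp14 at 5.68, Mmp13 at 4.43, Mmp9 at 3.43, Timp2 at 0.503, Mmp3 at 0.455, Mmp19 at 0.447, Thbs1 at 0.311 and Mmp8 at 0.235. Timp2, Mmp3 and Mmp19 overlapped there. In DMSO, Spp1 (681), Timp2 (2.35) and Mmp19 (1.25) were the most abundant by RPKM, and Mmp12, Mmp9, Mmp8 and Mmp14 lay between 0.0278 and 0.0800 with overlapping neighbours.

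Mmp3, Mmp8, Mmp12 and Mmp13 lie in a cluster of 10 metalloproteinase genes on chromosome 9 (GRCm38, 7272514 to 7699585). Mmp13 (7272514 to 7283331), Mmp12 (7344381 to 7369499), Mmp3 (7445822 to 7455975) and Mmp8 (7558456 to 7568485) are all on the plus strand. Of the other genes of the cluster, Mmp10, a second stromelysin, had 0 counts in DMSO and at most 15 counts in any library, and Mmp1a, Mmp1b, Mmp7, Mmp20 and Mmp27 were not tested for lack of counts. Mmp9 and Thbs1 are on chromosome 2 (164940780 to 164955850 and 118111876 to 118127133), Spp1 on chromosome 5 (104435118 to 104441050), Mmp19 on chromosome 10 (128790910 to 128800824), Timp2 on chromosome 11 (118301069 to 118355740, minus strand) and Mmp14 on chromosome 14 (54431612 to 54445364).

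**Figure D4:**
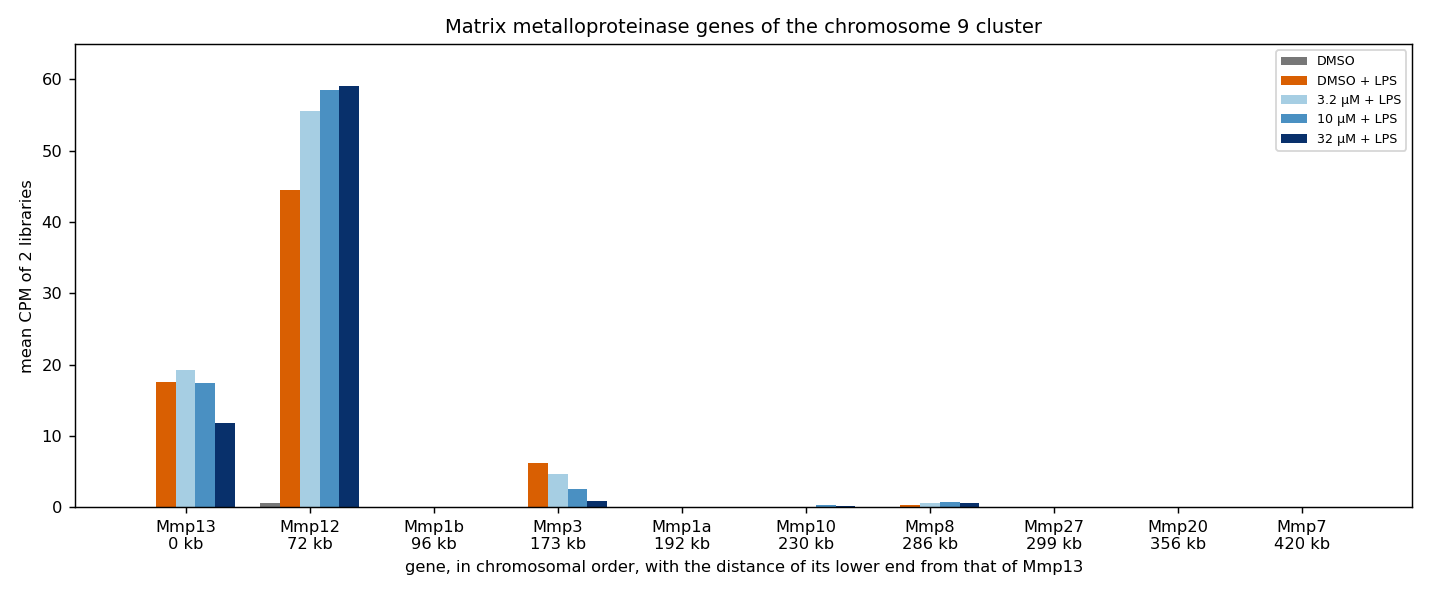
Mean TMM-scaled CPM of 2 libraries (y axis) for the 10 metalloproteinase genes of the chromosome 9 cluster in chromosomal order (x axis, distance from the lower end of Mmp13), with 1 bar per condition. Mmp12 stands at 59.03 CPM at 32 µM while Mmp3, further along, goes from 6.23 to 0.820 CPM, and the other genes of the cluster apart from Mmp13 stay below 1 CPM.

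Over the 23 metalloproteinase genes of the mouse that were examined, 21 had a count in some library and 12 were tested. With LPS, 7 rose and 1 fell, beside 14.6% and 13.6% of all genes. At 32 and at 10 µM 2 fell (Mmp3 and Mmp9) and 0 rose, beside 2.91% and 1.27% of all genes at 32 µM and 0.579% and 0.282% at 10 µM. The likelihood ratio test and DESeq2 called 10 with LPS, Mmp8 and Mmp10 being added, and DESeq2 called 3 at 10 µM, adding Mmp15, which had 64 counts in replicate 1 at 10 µM, the library with most epithelial transcripts, and at most 7 in any other. Among those outside the 10 genes, Mmp2 (gelatinase A) rose with LPS, from 164 and 170 counts to 248 and 217 (0.63 ± 0.15, adjusted p = 0.00840), and stood at 194 and 211 at 32 µM. Mmp25, a membrane-anchored type of leukocytes, rose from 0 and 2 counts to 16 and 14 (adjusted p = 0.00343) and had 5 and 6 at 32 µM. Mmp11 and Mmp23 had 1 to 22 counts per library and passed no test, and the 11 that were not tested had at most 64 counts in a library. Of the inhibitors, Timp1 had 0 and 1 counts in DMSO, 64 and 63 in DMSO + LPS, a ratio of 141 with a 95% counting interval of 24.8 to 5605, and 38 and 44 at 32 µM, where it did not pass the test. Timp3 had 22 counts in replicate 1 at 10 µM, 3 in replicate 1 at 3.2 µM and 0 elsewhere, the libraries with epithelial transcripts. A2m had 0 counts in every library, and Timp4 and Reck had at most 4.

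Of 7 tested genes that activate metalloproteinases or belong to the plasminogen system, 5 rose with LPS, beside 14.6% of all genes, and 2 fell at 32 µM, beside 2.91%. The 2 were Furin, the proprotein convertase that activates Mmp14 (DMSO + LPS 17811 and 15134 counts, 32 µM 9949 and 8768, −0.67 ± 0.05, adjusted p = 8.20e-05), and Serpinb2, an inhibitor of plasminogen activators (1772 and 1447 counts, then 619 and 685, −1.15 ± 0.09, adjusted p = 3.50e-04). Both calls stood without replicate 2 at 32 µM (−0.64 for Furin and −1.29 for Serpinb2). Serpinb2 had 0 counts in both DMSO libraries. Plaur, the urokinase receptor, had 638 CPM in DMSO + LPS and 584 CPM at 32 µM. The median difference of these 7 genes at 32 µM was −0.13, beside 0.01 over all genes tested.

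Among the 5 thrombospondin genes, Thbs1 alone was called at 32 µM by the quasi-likelihood test and by DESeq2, and the likelihood ratio test called 2, where 2.91% of all genes fell and 1.27% rose. Comp, a cartilage matrix protein of the family, fell with LPS by the quasi-likelihood test (−0.81 ± 0.27, adjusted p = 0.0375) but was not called by DESeq2 (adjusted p = 0.0836). It had 35 and 50 counts in DMSO + LPS and 79 and 78 at 32 µM (1.00 ± 0.27, adjusted p = 0.0625, and 0.0251 by the likelihood ratio test). Without replicate 2 at 32 µM the Comp difference was 0.95. Thbs3 had 57 and 58 counts before LPS and 13 and 27 after it, a difference called by the likelihood ratio test (adjusted p = 0.0279) and not by the quasi-likelihood test (0.0563) or DESeq2 (0.0877). Thbs4 had 135 counts in replicate 1 at 10 µM and at most 12 in any other library. Of the other genes of the osteopontin family, Dmp1 had 2 and 7 counts in DMSO and 0 with LPS, Mepe had at most 2, and Ibsp and Dspp had 0.

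Of 12 receptor genes for osteopontin and thrombospondin 1, 11 were tested, among them Itgb3, the integrin β3 chain, with only 2 to 18 counts per library. With LPS 4 rose and 3 fell, beside 14.6% and 13.6% of all genes. At 32 µM the quasi-likelihood test, the likelihood ratio test and DESeq2 each called 0, a count near the background of 1.27% higher and 2.91% lower. At an unadjusted quasi-likelihood p below 0.05, 6 of the 11 differed, beside 3151 of the 14172 genes tested, and the median difference was −0.20. Cd44, which binds osteopontin, rose with LPS (352 to 924 CPM, 1.39, adjusted p = 4.98e-08) and had 782 CPM at 32 µM. In a list of 11 matrix genes, 6 were tested and Tnc, the tenascin C gene, was the 1 called at 32 µM, where 2.91% of all genes fell, with 6 and 3 counts in DMSO, 327 and 240 in DMSO + LPS, and 36 and 46 at 32 µM (−2.63, adjusted p = 3.06e-04, and −2.88 without replicate 2 at 32 µM). Without that library Cd47, a receptor of thrombospondin 1, also passed both cutoffs (−0.59, against −0.54 with it).

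The genes outside all lists whose log2 level was most alike over the 10 libraries, among 9503 compared, were Oas1b, Slfn4 and Parp12 for Mmp3 (Pearson r = 0.998, 0.998 and 0.997), Mx2, Parp10 and Uba7 for Thbs1 (0.998, 0.998 and 0.998), and Myo1d, Il15ra and Ifi213 for Spp1 (0.991, 0.985 and 0.977). These values describe 10 libraries that share 1 line and the step from DMSO to LPS, which moves many genes together.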

How the data were processed

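Poly(A) RNA was made into directional libraries and sequenced for 2 × 150 cycles on a shared lane. The authors deposited raw, unnormalized counts of reads on each Ensembl gene for the 10 libraries. The submitters' processing notes name Trimmomatic, FastQC, STAR, DESeq2 and mm10 without versions. The counting tool, the use of strand and the annotation are not given in the sources used here. Totals ranged from 45966803 to 58976377 counts, and intervals and floors cover counting error only.

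Symbols, positions and exon lengths came from GENCODE M21 on GRCm38. The 884 identifiers without a symbol held 0.0948% of the counts. Genes passing filterByExpr (minimum count 10) were scaled by TMM and fitted in edgeR 4.0.16 (limma 3.58.1, R 4.3.3) with 1 mean per condition over all 10 libraries, leaving 5 residual degrees of freedom. Quasi-likelihood F tests were Benjamini-Hochberg adjusted over all 14172 genes. CPM refers to the TMM-scaled total. The floor for a gene at 0 was 3 counts per library. The likeness of genes used log2(CPM + 0.5). The code was tested on simulated data.

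The 10 genes, the other gene lists and the tests were chosen with earlier results of these data known. By the rule for names, all 10 genes are given in full, other metalloproteinase, TIMP, thrombospondin and osteopontin family genes by their counts, and from each other list up to 3 genes with the largest change among those called at 32 µM; Plaur, Cd44, Itgb3, Itgam, Lyz2, Csf1r, and those named in the closing section, were named after their values were seen. The alternatives comprised scaling by median-ratio size factors or by library totals, testing all genes with a count or those averaging 5 CPM, a replicate block, DESeq2 1.42.0, the likelihood ratio test, the 4 libraries compared alone, and leaving out each library. A block with the DMSO + LPS numbers crossed was added after seeing the data. No library was left out.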

Additional observations from a re-analysis of the deposited data

How the results depend on the processing

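Over all alternatives, 1076 values of single genes kept direction and side of the cutoffs, 8 lost a call, 14 gained one and 18 changed sign, those 18 all of genes not called. The number of the 10 genes called ranged, with each library left out, from 9 to 10 for LPS, 4 to 5 at 32 µM, 2 to 4 at 10 µM (2 without replicate 1 of DMSO + LPS), 0 to 0 at 3.2 µM, 3 to 3 for 32 against 10 µM and 8 to 9 for 32 µM with LPS against DMSO. For LPS it was 10 under the likelihood ratio test and DESeq2, Mmp8 being the gene added. At 3.2 µM it was 2 under the likelihood ratio test, DESeq2 and the 4 libraries compared alone. At 10 µM it was 3 in the 4 libraries compared alone, without Mmp3. For 32 against 10 µM it was 0 in the 4 libraries compared alone. For 32 µM with LPS against DMSO it was 5 with a mean of at least 5 CPM, where 6 of the 10 genes were tested. In the replicate block fit it was 9, 4, 4, 0, 3 and 9 in the order of the comparisons above, which changed no call. Same-numbered libraries deviated with correlations of −0.396, −0.340, −0.433 and −0.211 for LPS, 32, 10 and 3.2 µM, of 0.800 for 32 against 10 µM and of 0.851 for 32 µM with LPS against DMSO. Every negative value is of a comparison with DMSO + LPS, and both comparisons without it are positive. Each comparison has 2 pairs, and the labels tie no number to a shared culture or day, so the numbers were not taken as a pairing. Whether some libraries shared a batch was not tested. With the DMSO + LPS numbers crossed, 10, 4, 4, 0, 3 and 9 were called, and 223 of all genes at 10 µM and 292 for 32 against 10 µM. Over all genes, the 122 calls at 10 µM became 41 in the 4 libraries compared alone, 52 and 59 without replicate 1 and 2 of DMSO + LPS, and 227 without replicate 2 at 10 µM. The 187 for 32 against 10 µM became 5 in the 4 libraries alone. At 3.2 µM, 66 genes were called in the 4 libraries alone, 8 by DESeq2 and 3 by the likelihood ratio test. With a mean of at least 5 CPM, where fewer genes were tested, 3995 calls for LPS became 2641 and 3847 for 32 µM with LPS against DMSO became 2547. Library size alone moved the median log2 change of all genes for LPS from 0.00 to −0.20, and the share of calls that were higher from 51.9% to 35.0%. For 32 µM with LPS against DMSO it moved the median to −0.18 and the share from 51.1% to 34.7%, and no direction of a called gene among the 10 changed. The sign changes were as follows. Timp2 at 32 µM was −0.0133 without a count filter, −0.00198 with the crossed block, −0.00479 in the 4 libraries alone, and from −0.11 to 0.11 with a library left out. Mmp13 at 10 µM was 0.0077 with library size alone and from −0.044 to 0.035 with a library left out (0.0027 without replicate 1 at 10 µM). With a library left out, Mmp14 at 3.2 µM ranged from −0.0031 to 0.12 and Timp2 from −0.19 to 0.021. For 32 against 10 µM, the ranges were −0.034 to 0.061 for Mmp12, −0.77 to 0.063 for Mmp8, and −0.077 to 0.16 for Mmp19. The cause of these changes was not tested. Mmp8, with 1 to 38 counts per library, had the widest intervals of the 10 genes in the comparisons of each dose with DMSO + LPS.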

Other observations

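Of 13 tested genes for AP-1 and NF-κB subunits, known as regulators of metalloproteinase genes, 8 rose with LPS and 0 fell, beside 14.6% and 13.6% of all genes, among them Fosl1, an AP-1 subunit (9.10 to 102 CPM, adjusted p = 7.15e-09), and Nfkb2, which encodes the p100 precursor (91.6 to 355 CPM, adjusted p = 2.06e-08). At 32 µM against DMSO + LPS, edgeR's quasi-likelihood test, its likelihood ratio test and DESeq2 each called 0 of them. With 1.27% of all genes called higher and 2.91% lower in that comparison, 0 calls of 13 is near the background. This count of calls says nothing particular about these genes. At an unadjusted quasi-likelihood p below 0.05, 8 of the 13 differed, beside 3151 of the 14172 genes tested. Their median difference at 32 µM was 0.06, beside 0.01 over all genes tested.

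Genes of other proteases differed widely in level. With LPS, 1 of 6 cathepsin genes rose and 0 fell, and of 7 tested ADAM and ADAMTS genes 2 rose and 2 fell, beside 14.6% higher and 13.6% lower over all genes. The 6 cathepsin genes, lysosomal proteases, were all tested, and Ctsz rose with LPS (807 to 1679 CPM, adjusted p = 7.29e-05). Of 7 tested genes for membrane-bound or secreted metalloproteinases of the ADAM and ADAMTS families, Adamts1 and Adamts4, which cut proteoglycans, rose with LPS to 10.4 and 3.67 CPM (1.05, adjusted p = 5.88e-05, and 3.17, adjusted p = 2.29e-06), and Adam9 and Adam10, which release cell surface proteins, fell (−0.62, adjusted p = 3.97e-05, and −1.08, adjusted p = 9.55e-05). At 32 µM the quasi-likelihood test, the likelihood ratio test and DESeq2 each called 0 cathepsins and 0 ADAM or ADAMTS genes. As 1.27% of all genes were called higher and 2.91% lower, a count of 0 calls is near the background. At an unadjusted quasi-likelihood p below 0.05, 4 of 6 cathepsins and 1 of 7 ADAM or ADAMTS genes differed, beside 3151 of the 14172 genes tested.

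Of 7 osteoclast markers 6 were tested, and 2 fell and 0 rose at 32 µM, beside 2.91% and 1.27% of all genes, with a median difference of −0.07. Acp5, the tartrate-resistant phosphatase, had 38.3 CPM in DMSO + LPS and 21.5 CPM at 32 µM (−0.83, adjusted p = 0.00432), and Ocstamp, a cell fusion gene, had 10.0 and 5.25 CPM (−0.94, adjusted p = 1.84e-04). Without replicate 2 at 32 µM both stayed called (−0.71 and −0.89). The summed level of the 7 markers was 434 and 422 CPM in DMSO + LPS and 421 and 452 CPM at 32 µM. Of 9 neutrophil markers 2 were tested and 1 fell, against the same background. This was S100a8, a calcium-binding protein of neutrophils and activated macrophages, which had 6.35 and 1.89 CPM (−1.74, adjusted p = 0.0257) and did not pass without replicate 2 at 32 µM (−1.41, adjusted p = 0.150), and the 9 summed to 6.76 and 6.67 CPM in DMSO + LPS and to 2.70 and 1.84 CPM at 32 µM. The part of these markers in the values of Mmp9 and Spp1 was not tested.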
